A study of Mus musculus with 20 samples.

Results

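Fos, Fosb, Fosl2, Jun, Junb, Jund, Atf3 and Egr1 are 8 transcription factor genes of the AP-1 and early growth response families, out of 17415 genes measured in mouse quadriceps muscle. They were chosen by gene name from an earlier look at these libraries, in which Fos and Fosb were higher in the injured than in the control limb under both antibody treatments. The comparisons of ACLT with control limbs are therefore given for these 8 genes as a description with no test, and the comparisons of the antibodies are the tested ones. Of the 8 genes, 7 passed the filter on low values, which asked for at least 10 counts per 1000000 (CPM) in at least 5 libraries. Atf3 reached that level in 3 libraries and was not among the 7937 genes tested.

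AP-1 is a dimer of Fos, Jun, ATF and Maf family proteins that binds short DNA elements, the TPA response element (TRE) and the cyclic AMP response element (CRE). Many of its subunit genes, and Egr1, are immediate early genes, whose transcription starts within minutes of a growth factor, stretch or damage signal without new protein synthesis and usually ends soon after. In skeletal muscle they are known for their response to exercise, denervation and injury, in muscle fibres as well as in the mononuclear cells between them.

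The anterior cruciate ligament of a single limb was transected (ACLT) and both quadriceps were taken 7 days later, the other limb being the control. Mice were injected under the skin 2 times a week with 10 mg/kg of GDF8 Ab (REGN647), a human antibody to GDF8, the muscle growth inhibitor also called myostatin, or of a placebo antibody (PLA Ab, REGN1945). The 20 libraries made 4 groups of 5, namely PLA Ab control, PLA Ab ACLT, GDF8 Ab control and GDF8 Ab ACLT, and samples were not pooled. The control limbs came from operated and antibody-treated mice, so none of the groups was from an unoperated or untreated animal. The mice were 4 to 5 months old and of both sexes. The antibodies were given to C57BL/6J mice and to Col1-eGFP mice, which carry a green fluorescent protein driven by a type I collagen promoter. The libraries came from the experiment in which collagen-expressing cells were also traced, and the labels do not give the strain of each library.

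Muscle fibre markers (8 genes) summed to between 71632.5 and 129390 CPM in every library, and none of them was at 0 in a whole group. The spacing of the lowest values put the depth between 15.6 M and 24.2 M reads, so that 3 reads corresponded to between 0.124 and 0.193 CPM. In the ACLT limbs the summed level of 8 macrophage markers ranged from 204 to 1448 CPM with PLA Ab and from 53.2 to 241 CPM with GDF8 Ab, against 23.8 to 64.4 and 32.8 to 52.2 CPM in the control limbs. The summed level of 8 fibroblast and progenitor markers ranged from 872 to 12978 CPM with PLA Ab and from 418 to 2412 CPM with GDF8 Ab in the ACLT limbs, against 288 to 639 and 376 to 591 CPM in the control limbs. Neutrophil markers, of which 5 of 6 were in the table, summed to at most 14.2 CPM in any library. No marker of these lists that was in the table was at 0 in a whole group. PLA Ab ACLT libraries 4 and 5 held the highest macrophage and fibroblast sums of all 20 libraries. In bulk muscle, more cells of a type and more RNA per cell cannot be told apart.

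The region around the start of transcription is shown for Fos, Fosb, Junb and Jun, the subunit genes in which a CRE half-site or a Jun-type site was found and that are followed most closely below. Each window holds 250 bases before and 50 bases from the start, is written on the gene's own strand and comes from RefSeq on GRCm38.p6. Of the 8 genes, 7 matched the RefSeq table, and Egr1 did not. Capitals mark 3 motifs, searched on both strands. The first is the CRE half-site TGACG, which a full CRE holds on each strand. The second is the Jun-type site TGACATCA, a variant of the CRE known from the Jun promoter. The third is the TATA box TATAAA.
Fos, chr12:85473640-85473939, plus strand: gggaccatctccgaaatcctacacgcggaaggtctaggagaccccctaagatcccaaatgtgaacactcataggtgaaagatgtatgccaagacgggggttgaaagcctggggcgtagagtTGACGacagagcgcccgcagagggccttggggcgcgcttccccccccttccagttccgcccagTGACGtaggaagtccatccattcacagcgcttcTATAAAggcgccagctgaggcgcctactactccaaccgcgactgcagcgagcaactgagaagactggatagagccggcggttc
Fosb, chr7:19309996-19310295, minus strand: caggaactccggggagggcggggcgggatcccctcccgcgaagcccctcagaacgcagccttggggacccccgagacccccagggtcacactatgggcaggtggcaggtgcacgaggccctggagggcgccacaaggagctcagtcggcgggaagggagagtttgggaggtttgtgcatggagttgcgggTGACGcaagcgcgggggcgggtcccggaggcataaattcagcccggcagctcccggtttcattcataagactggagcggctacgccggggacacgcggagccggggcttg
Junb, chr8:84978699-84978998, minus strand: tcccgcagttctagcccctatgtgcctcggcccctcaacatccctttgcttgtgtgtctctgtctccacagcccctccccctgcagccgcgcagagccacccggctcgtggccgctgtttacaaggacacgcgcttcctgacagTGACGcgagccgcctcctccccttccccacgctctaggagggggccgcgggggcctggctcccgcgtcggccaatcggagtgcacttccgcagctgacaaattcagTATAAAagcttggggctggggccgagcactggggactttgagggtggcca
Jun, chr4:95052173-95052472, minus strand: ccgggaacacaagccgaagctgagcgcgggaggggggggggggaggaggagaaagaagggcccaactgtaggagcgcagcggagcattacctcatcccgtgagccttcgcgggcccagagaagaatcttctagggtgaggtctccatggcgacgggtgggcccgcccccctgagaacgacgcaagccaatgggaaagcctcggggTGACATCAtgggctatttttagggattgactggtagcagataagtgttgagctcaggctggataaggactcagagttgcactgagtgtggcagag

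The CRE half-site stood in 4 of the 7 windows, those of Fos (starting 129 and 66 bases before the start), Fosb (60 bases), Junb (106 bases) and Atf3 (7 bases, on the opposite strand), and in 20.8% of all 32851 RefSeq windows. The Jun-type site was found in Jun alone of the 7, starting 45 bases before the start, and in 3.62% of all windows. TATAAA was found in Fos, starting 33 bases before the start, and in Junb, where it lay at the annotated start itself, and in 13.6% of all windows. The full CRE TGACGTCA, which contains the half-site, stood in 1.79% of all windows, the TRE TGANTCA in 7.81% and the CArG box, the element bound by serum response factor, in 1.63%. None of these last 3 was found in the 7 windows. Sites more than 250 bases before the start were not searched, and Egr1 had no window. Absence from a window therefore does not show that a gene lacks the element. These are letter matches and not measured binding.

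Fos encodes c-Fos, the prototype AP-1 subunit, which binds DNA only with a partner such as a Jun protein. With PLA Ab, Fos stood at 7.95, 5.99, 2.13, 3.14 and 3.75 CPM in control libraries 1 to 5 and at 98.2, 34.4, 35.4, 45.7 and 109 CPM in ACLT libraries 1 to 5. With GDF8 Ab it stood at 3.55, 3.74, 2.15, 1.75 and 9.62 CPM in the control limbs and at 102, 158, 20.9, 24.0 and 22.6 CPM in the ACLT limbs. Every ACLT library lay above every control library under both antibodies, by a lowest ACLT value of 20.9 CPM against a highest control value of 9.62 CPM. On the scale of log2(CPM + 1) the difference between ACLT and control was 3.48 ± 0.54 (SE) with PLA Ab and 3.34 ± 0.54 with GDF8 Ab, 5 libraries in each group.

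Fosb encodes FosB and its truncated form ΔFosB, a long-lived variant known from repeated stimulation of neurons. It was near the limit of detection in the control limbs, at 0.465, 1.09, 0.324, 0.641 and 0.949 CPM with PLA Ab, where the lowest library held about 7 reads. The PLA Ab ACLT libraries held 43.5, 10.6, 18.1, 15.7 and 38.3 CPM. With GDF8 Ab the control limbs held 0.459, 0.608, 0.321, 0.428 and 2.98 CPM and the ACLT limbs 35.8, 80.4, 6.70, 14.2 and 5.61 CPM. Groups did not overlap under either antibody, and the log2 differences were 3.78 ± 0.56 and 3.40 ± 0.56. Since a pseudocount of 1 exceeds most control values, these log2 values understate the change: with a pseudocount of 0.1 they were 4.89 and 4.50.

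Fos and Fosb passed the filter on low values through the ACLT libraries alone, as no control library reached 10 CPM. Genes that pass in this way had to differ between the limbs, so their differences are reported as levels only. In the ACLT limb with PLA Ab, 18.5% of all tested genes were higher and 1.66% lower past an adjusted p of 0.05 (1471 and 132 genes, or 931 and 2079 after median-of-ratios scaling), and the shares were 0.0252% higher and 0.00% lower with GDF8 Ab. These last are 2 genes higher, which were Fos and Fosb, and 0 lower (limma, with 144 genes in either direction at an unadjusted p under 0.05). This is the contrast from which the genes were chosen, so nothing is read from that count. Without GDF8 Ab ACLT libraries 1 and 2 the log2 differences with GDF8 Ab fell to 2.36 for Fos and 2.37 for Fosb and no gene of the 7937 was called. Over single left-out libraries the count of called genes with GDF8 Ab lay between 0 and 4.

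Fosl2 encodes Fra-2, a Fos relative without a transactivation domain, known from bone and connective tissue. Its control limbs were tightly grouped, from 12.2 to 17.5 CPM (median 12.5) with PLA Ab and from 13.1 to 18.1 CPM (median 14.3) with GDF8 Ab. The PLA Ab ACLT libraries held 27.6, 26.7, 17.2, 42.3 and 66.2 CPM and the GDF8 Ab ACLT libraries 23.2, 33.9, 15.6, 17.8 and 16.5 CPM. ACLT and control libraries overlapped under both antibodies, by library 3 alone with PLA Ab and by libraries 3, 4 and 5 with GDF8 Ab. The log2 differences were 1.22 ± 0.26 with PLA Ab and 0.42 ± 0.26 with GDF8 Ab.

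Junb and Jun encode Jun proteins, which can pair with themselves or with a Fos protein, JunB being the weaker activator of the pair and in mouse muscle a factor that maintains fibre size. With PLA Ab, Junb stood at 18.1, 7.70, 10.04, 7.44 and 8.13 CPM in the control limbs and 69.9, 27.0, 24.3, 54.3 and 130.1 CPM in the ACLT limbs. With GDF8 Ab it stood at 10.9, 7.52, 8.01, 6.76 and 8.40 CPM in the control and 48.0, 71.6, 19.6, 15.5 and 12.7 CPM in the ACLT limbs. No ACLT library of Junb overlapped a control library of the same antibody, and the log2 differences were 2.27 ± 0.44 and 1.59 ± 0.44. Junb reached 10 CPM in every ACLT library but in only 2 PLA Ab and 1 GDF8 Ab control libraries. It therefore passed the filter through the ACLT libraries, and nothing is read from the lack of overlap. Without GDF8 Ab ACLT libraries 1 and 2 the second value was 0.86.

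Jun was abundant in every library and moved over a narrower range. It stood between 55.5 and 74.2 CPM (median 63.1) in PLA Ab control, between 85.2 and 127 CPM (median 116) in PLA Ab ACLT, between 59.2 and 86.0 CPM (median 73.5) in GDF8 Ab control, and between 65.2 and 191 CPM (median 85.5) in GDF8 Ab ACLT. The groups did not overlap with PLA Ab (log2 difference 0.74 ± 0.21) and overlapped with GDF8 Ab (0.46 ± 0.21). Jund, the Jun gene with the steadiest expression in most cells, had log2 differences of 0.81 ± 0.23 and 0.77 ± 0.23, with a single ACLT library inside the control range under GDF8 Ab.

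Counts of the Jun genes carry a limit from their neighbours. Jun shares 689 bases with the antisense gene Junos, at a mean of 3.38 CPM, and Junb shares 351 bases with Prdx2, on the other strand and at a mean of 84.9 CPM. Whether counting used the strand is not given in the sources used here, so reads in these stretches cannot be assigned with certainty.

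Atf3 encodes a stress-induced factor of the ATF branch that often acts as a repressor. It stood between 2.35 and 5.07 CPM in PLA Ab control and between 6.24 and 13.5 CPM in PLA Ab ACLT, without overlap. With GDF8 Ab it stood between 1.60 and 8.26 CPM in the control limbs and at 17.1, 23.1, 5.91, 5.78 and 4.62 CPM in the ACLT limbs, where libraries 1 and 2 alone exceeded every control library. With the filter relaxed to 1 CPM, the log2 differences of Atf3 were 1.06 ± 0.38 and 0.88 ± 0.38.

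Egr1 encodes a zinc finger factor outside AP-1 whose gene is induced by the same kinase pathways. With PLA Ab, Egr1 stood at 51.4, 21.8, 4.995, 15.5 and 19.2 CPM in the control and 153, 68.7, 40.8, 73.3 and 160.2 CPM in the ACLT limbs, where ACLT library 3 lay below control library 1. With GDF8 Ab it stood at 32.8, 22.4, 16.0, 15.1 and 25.8 CPM in the control and 116, 171, 45.03, 46.8 and 28.9 CPM in the ACLT limbs, where library 5 alone lay inside the control range. The log2 differences were 2.23 ± 0.52 and 1.57 ± 0.52, and the second was 0.84 without GDF8 Ab ACLT libraries 1 and 2.

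**Figure D1:**
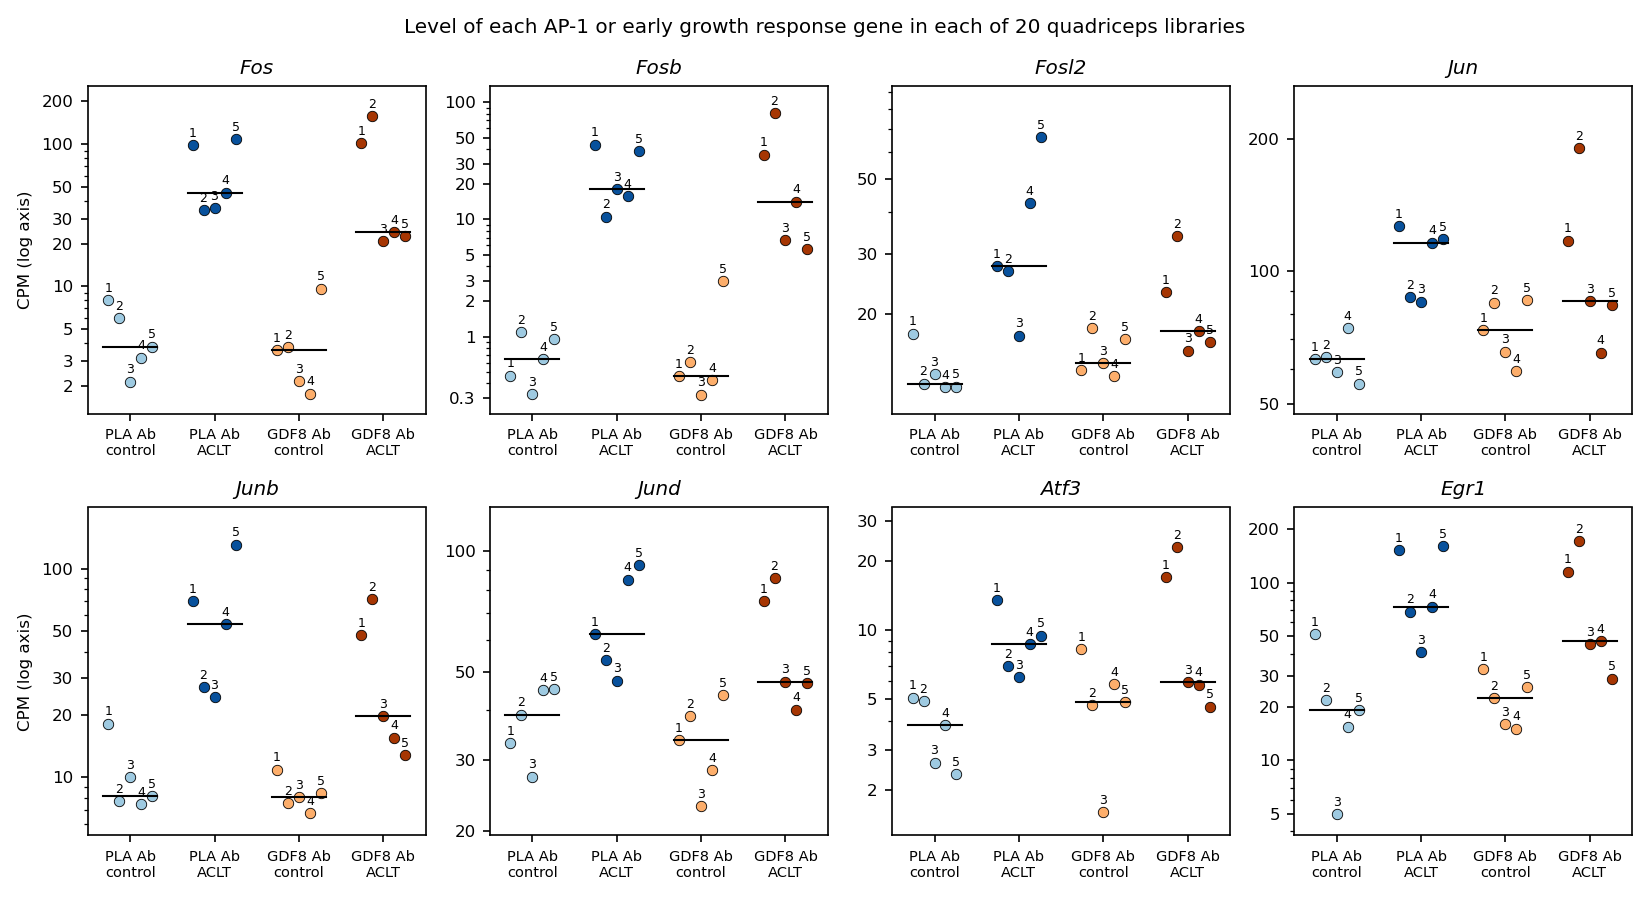
CPM (log axis) of each of the 8 genes in every library, by group, with each point numbered by its library and a bar at the group median. Fos and Fosb show the widest gap between control and ACLT limbs, and libraries 1 and 2 lead the GDF8 Ab ACLT group for all 8 genes.

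Over the 8 genes, ACLT libraries lay wholly above control libraries for 6 with PLA Ab (5 of the 7 tested) and for 3 with GDF8 Ab (Fos, Fosb and Junb, all tested). Among all 7937 tested genes such a separation occurred for 6.70% with PLA Ab and 1.13% with GDF8 Ab. Fos, Fosb and Junb would not have passed the filter on the control libraries alone. The contrast is also the one that chose the genes, so the shares stand here as background only.

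Taking same-numbered libraries under an antibody as the 2 limbs of a mouse, the ratio of ACLT to control CPM could be read mouse by mouse. For Fos it was 12.4, 5.74, 16.6, 14.5 and 29.1 with PLA Ab and 28.8, 42.2, 9.70, 13.7 and 2.34 with GDF8 Ab. For Fosb it was 93.5, 9.70, 55.8, 24.5 and 40.4 with PLA Ab and 78.0, 132, 20.9, 33.3 and 1.88 with GDF8 Ab. Mouse 5 of the GDF8 Ab group had the smallest ratio for both genes, with the highest control-limb level of its group and an ACLT level among the lowest. Its Egr1 ratio of 1.12 and Junb ratio of 1.52 were also the lowest of the 10 mice. With PLA Ab every ratio of all 8 genes was above 1, and with GDF8 Ab the ratio was above 1 in 5 of 5 mice for Fos, Fosb, Junb, Jund and Egr1, in 4 of 5 for Fosl2 and Jun and in 3 of 5 for Atf3.

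**Figure D2:**
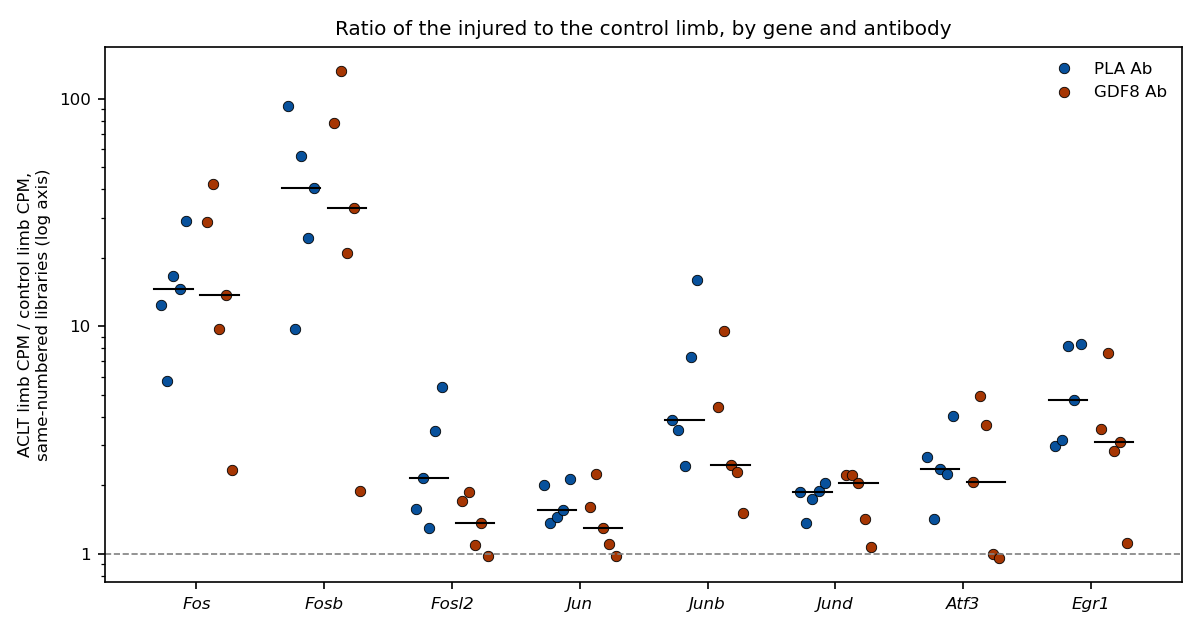
Ratio of ACLT to control CPM (log axis) in same-numbered libraries, by gene and antibody, with points running from mouse 1 on the left to mouse 5 on the right and a bar at the median. The median ratio was 14.5 and 13.7 for Fos and 40.4 and 33.3 for Fosb with PLA Ab and GDF8 Ab, and at most 4.72 for the other 6 genes.

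The libraries within the ACLT groups split in the same way for most of the 8 genes. GDF8 Ab ACLT library 2 was the highest of its group for 8 of 8 genes and library 1 the second highest for 8 of 8. In the PLA Ab ACLT group library 5 was among the 2 highest for 8 of 8 genes and library 1 for 6 of 8, while library 3 was the lowest for 6 of 8. The 4 libraries with Fos near or above 100 CPM differed in cell type markers. Their macrophage sums were 204 and 1448 CPM (PLA Ab libraries 1 and 5) and 147 and 172 CPM (GDF8 Ab libraries 1 and 2), and their fibroblast and progenitor sums 872, 12978, 1003 and 1414 CPM in the same order. PLA Ab library 4, with a macrophage sum of 982 CPM and a fibroblast and progenitor sum of 10173 CPM, held 45.7 CPM of Fos. This order did not hold for all 8 genes. Library 4 was among the 2 highest of its group for 2 genes, Fosl2 and Jund. It held 42.3 CPM of Fosl2 and 85.0 CPM of Jund, against 27.6 and 62.1 CPM in PLA Ab library 1. As the libraries fell into a high and a low cluster of Fos, no correlation across them is given, and the part of cell makeup in these levels was not tested.

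**Figure D3:**
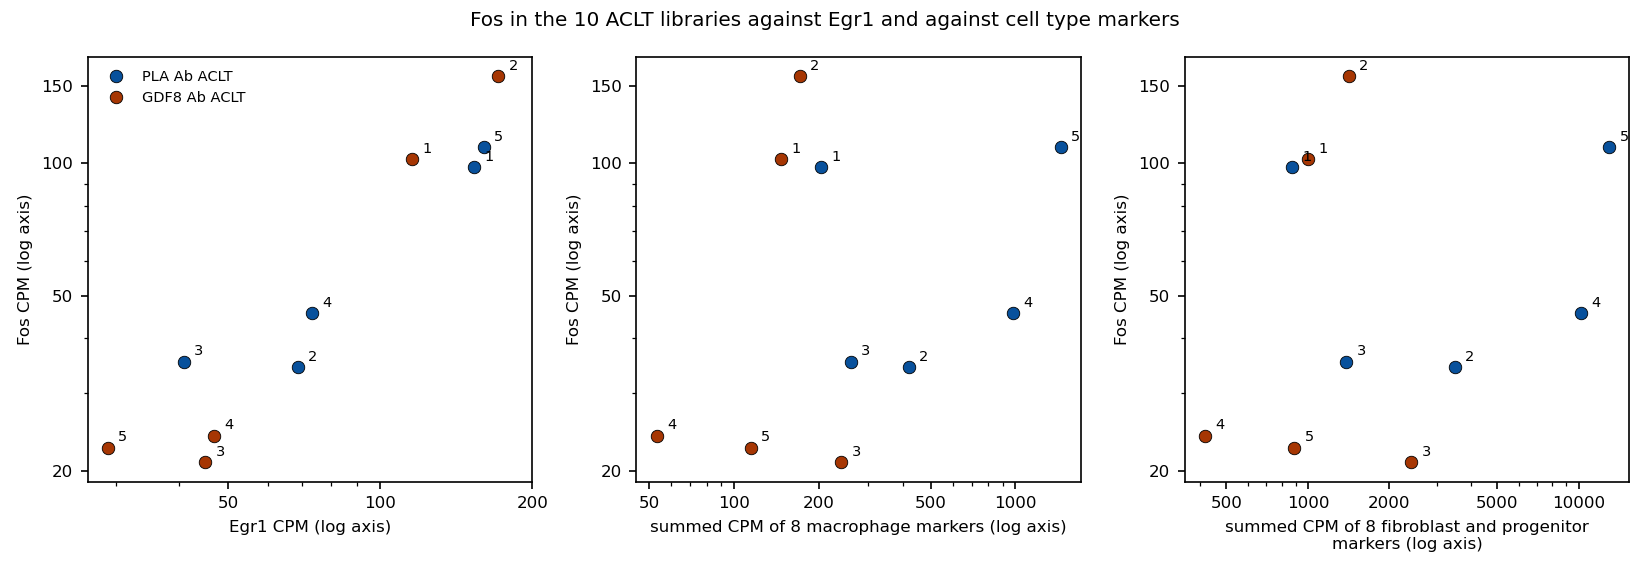
Fos CPM in the 10 ACLT libraries against Egr1 CPM, the summed CPM of 8 macrophage markers and the summed CPM of 8 fibroblast and progenitor markers, all on log axes, with points numbered by library. The 4 libraries highest in Fos are also the 4 highest in Egr1, while their macrophage sums run from 147 to 1448 CPM.

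Setting GDF8 Ab against PLA Ab asks whether blocking GDF8 altered the level of these genes. The average over both limbs is independent of the injury contrasts that chose the genes only where both limbs have an equal spread. Fosl2, for one, did not have an equal spread. In this average, 0 of the 7 tested genes passed an adjusted p of 0.05 (limma, 0 also at an unadjusted p under 0.05), where 1.99% of all genes did. That share of all genes rested on single libraries, as its 158 genes became 9 without PLA Ab ACLT library 4 and 1901 without PLA Ab ACLT library 1. This fit also took the 2 limbs of a mouse as independent. With the limbs blocked by mouse the 158 genes became 6, and 0 of the 7 were called (limma). The intervals that follow are from the fit without the block. The Fos difference was -0.26 ± 0.38 on the log2 scale, with a 95% interval from -1.05 to 0.53 (adjusted p = 0.632), and that of Fosb was -0.10 ± 0.39, with an interval from -0.93 to 0.72 (adjusted p = 0.860). Junb had the lowest unadjusted p of the 7, with a difference of -0.55 ± 0.31 and an interval from -1.21 to 0.10 (adjusted p = 0.224). The intervals for Fosl2, Jun, Jund and Egr1 also held 0, and the widest of them, for Egr1, ran from -0.84 to 0.70. A p that misses the threshold does not show equal levels.

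In the ACLT limb alone, which shares its libraries with the injury contrasts, 0 of the 7 genes were called (limma, 1 at an unadjusted p under 0.05), where 6.70% of all genes were. Those 532 genes became 1 without PLA Ab ACLT library 4, 18 without library 5 and 2810 without PLA Ab ACLT library 1. They became at most 15 without any single one of GDF8 Ab ACLT libraries 1, 2, 4 and 5. With the 2 ACLT groups fitted alone, 0 of all genes were higher and 0 lower. The gene past the unadjusted p was Fosl2, at 36.0 ± 19.1 CPM (SD, n = 5) with PLA Ab and 21.4 ± 7.60 CPM with GDF8 Ab, a log2 difference of -0.64 ± 0.26 with an interval from -1.18 to -0.09 and an adjusted p of 0.0965 by limma. The SE and interval use a spread shared by all 4 groups. The SD of Fosl2 was 16.8% of its mean in PLA Ab control and 14.3% in GDF8 Ab control. It was 53.1% in PLA Ab ACLT and 35.5% in GDF8 Ab ACLT. An interval from the 2 ACLT groups alone is not given here. Fosl2 was called by limma when a covariate for Y-linked expression was added (adjusted p = 0.0472). In that fit 157 of all genes were higher and 2125 lower. Fosl2 was also called when PLA Ab ACLT library 3 was left out (adjusted p = 0.0174), where 186 of all genes were higher and 2025 lower. Both settings called far more genes than the 532 above, so these calls are not particular to Fosl2. The Fosl2 difference was -0.18 without PLA Ab ACLT libraries 4 and 5 (adjusted p = 0.871). The differences of Junb (-0.89 ± 0.44), Egr1 (-0.41 ± 0.52), Fos (-0.33 ± 0.54) and Fosb (-0.30 ± 0.56) each had an interval that held 0. Mean Fos was 64.5 ± 36.2 CPM with PLA Ab and 65.5 ± 62.1 CPM with GDF8 Ab. The median difference over all tested genes was -0.14 in this limb, with 30 genes higher and 502 lower. After rescaling by median-of-ratios factors the median was 0.08, with 383 genes higher and 316 lower, and the differences of Jun and Jund in this limb turned from -0.06 and -0.22 to 0.18 and 0.016.

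In the control limb, 0 of the 7 genes were called (limma, 0 at an unadjusted p under 0.05), as were 0.00% of all genes (630 at an unadjusted p under 0.05). Mean Fos was 4.59 ± 2.35 CPM with PLA Ab and 4.16 ± 3.17 CPM with GDF8 Ab, a log2 difference of -0.19 ± 0.54. With the 1 CPM filter the Atf3 differences were 0.18 ± 0.27 averaged over limbs, 0.09 ± 0.38 in the ACLT limb and 0.27 ± 0.38 in the control limb, and none was called.

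**Figure D4:**
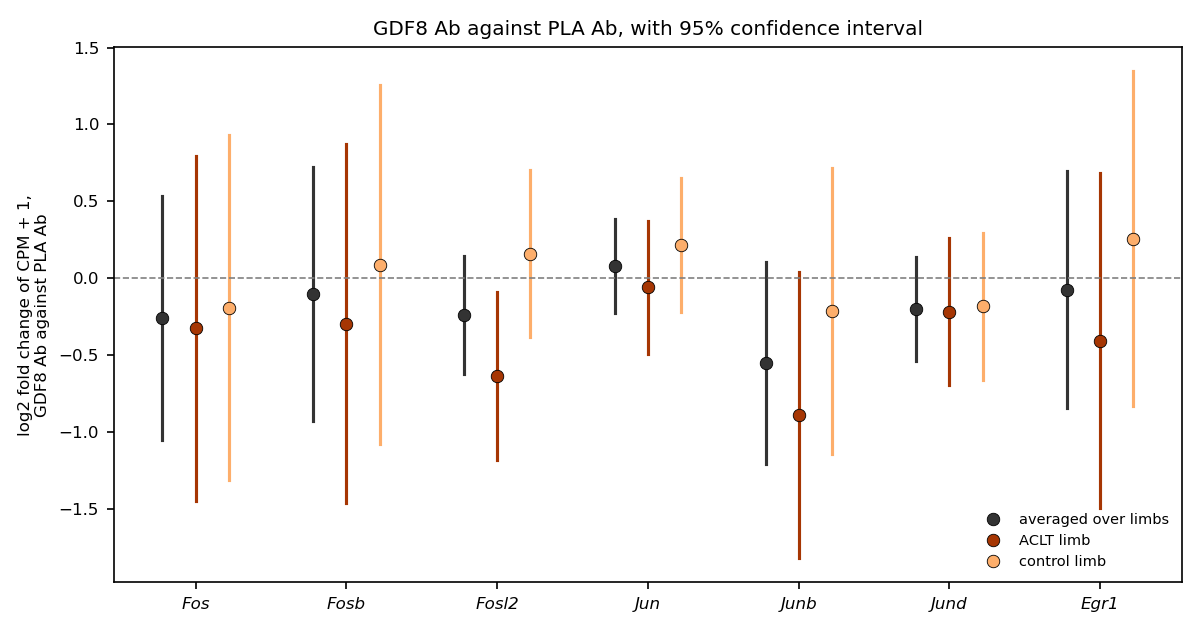
Difference between GDF8 Ab and PLA Ab in log2(CPM + 1) for the 7 tested genes, averaged over limbs, in the ACLT limb and in the control limb, with 95% confidence intervals. The interval of Fosl2 in the ACLT limb, from -1.18 to -0.09, is the only one of the 21 that does not hold 0. All 21 intervals use a spread shared by the 4 groups, control limbs included.

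Of 12 further AP-1 subunit genes 6 were tested, with a median log2 difference between ACLT and control of 0.10 with PLA Ab, against 0.12 over all genes. With GDF8 Ab, 0 of the 6 were called (limma, 0 at an unadjusted p under 0.05). Fosl1, the gene of Fra-1, was at 0 CPM in 4 of 5 PLA Ab control libraries and reached 1.13 CPM in a single PLA Ab ACLT library, and was not tested.

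Of 5 other early growth response genes and their NAB corepressors, 4 were in the table and only Nab1 passed the filter, with 5 of its 6 libraries at 10 CPM or more from ACLT limbs, so that its levels are given with no test. With PLA Ab, Nab1 stood at 8.54 ± 1.06 CPM in the control limbs and at 15.7 ± 6.65 CPM in the ACLT limbs. With GDF8 Ab it stood at 8.38 ± 1.299 and 8.55 ± 1.44 CPM. Egr2 and Egr3 peaked in PLA Ab ACLT library 5, at 16.3 and 23.5 CPM, where the other ACLT libraries of both antibodies held at most 3.69 and 5.07 CPM. Neither passed the filter.

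The kinases and factors that act on these genes, among them the MAP kinases, serum response factor and its partners and the CREB group, included 17 tested genes of 19. With PLA Ab, 3 of the 17 rose, Elk3 (1.06 ± 0.25, adjusted p = 0.00858), Mapk3 (0.70 ± 0.20, adjusted p = 0.0223) and Crtc2 (0.29 ± 0.10, adjusted p = 0.0475), with a median over the 17 of 0.07. The share called, 3 of 17, is near the 18.5% of all genes that were higher, and is not a result about these genes. After median-of-ratios scaling the Crtc2 difference was 0.03 and no longer passed (adjusted p = 0.738), and over all 33 alternatives the call of Crtc2 was lost in 23. The same 3 genes were lower with GDF8 Ab than with PLA Ab in the ACLT limb (limma, adjusted p from 0.0359 to 0.0474). Of all 7937 genes, 502 were lower there. Crtc2 alone of the 3 was called with the limbs blocked by mouse, and none without PLA Ab ACLT libraries 4 and 5. None was called with the 2 ACLT groups fitted alone, where 0 of all genes were lower. Over the 33 alternatives the call of a lower level with GDF8 Ab was lost in 22 for Mapk3, 21 for Elk3 and 11 for Crtc2. With GDF8 Ab, 0 of the 17 were called in the injury comparison (limma, 0 at an unadjusted p under 0.05).

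Among 33 other immediate early genes, a list chosen with earlier results of these data known, 20 were tested and 9 rose in the ACLT limb with PLA Ab, against the 18.5% of all genes given above. Ier2 and Dusp6 would not have passed the filter on the control libraries alone (0 and 3 of 10 reached 10 CPM), and without them 7 of 18 rose. The median log2 difference of the 18 was 0.87, against 0.12 over all genes. Ier2, an early response gene of unclear biochemical role, passed through the ACLT libraries alone, as Fos and Fosb did, and had to differ. Its levels with PLA Ab were 5.78 ± 2.49 CPM in the control limbs and 24.8 ± 13.4 CPM in the ACLT limbs, and all 10 ACLT libraries, the lowest at 10.5 CPM, lay above all 10 control libraries, the highest at 9.77 CPM. Zfp36, which encodes the mRNA decay factor tristetraprolin, rose from 9.61 ± 3.29 to 39.3 ± 21.3 CPM (log2 difference 1.83 ± 0.41, adjusted p = 0.00737), and the related gene Zfp36l1 also rose (1.23 ± 0.29, adjusted p = 0.00955). Nr4a1 and Cebpb, with differences of 0.12 and 0.03, did not pass.

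With GDF8 Ab, 0 of the 20 were called (limma, 5 at an unadjusted p under 0.05), with a median difference of 0.35, and 0 of the 18 (4 at an unadjusted p under 0.05). Ier2 stood at 4.82 ± 0.658 CPM in the control limbs and 19.5 ± 11.6 CPM in the ACLT limbs. The difference between the antibodies in the response to injury was called for 0 of the 20 genes (limma, 0 at an unadjusted p under 0.05), as it was for 0.00% of all 7937 genes (940 at an unadjusted p under 0.05), so this 0 is not particular to the list. Between the antibodies, averaged over limbs, Gadd45b was lower with GDF8 Ab (-0.53 ± 0.13, adjusted p = 0.0453, but 0.121 with the limbs blocked by mouse).

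The count of 9 depended on the libraries and the filter. The share of all genes that were higher, 18.5% as reported, fell in the same settings. The count was 1 with PLA Ab ACLT libraries 4 and 5 left out, where 2.99% of all genes were higher. It was 4 without library 4 of that group (7.26% of all genes) and 3 without its library 5 (9.13%). Without PLA Ab control library 3 it was 4 (11.5%). It was 0 when the 2 PLA Ab groups were fitted alone, where 0.202% of all genes were higher. With the filter relaxed to 1 CPM it was 17 of 33, where 28.0% of all genes were higher.

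**Figure D5:**
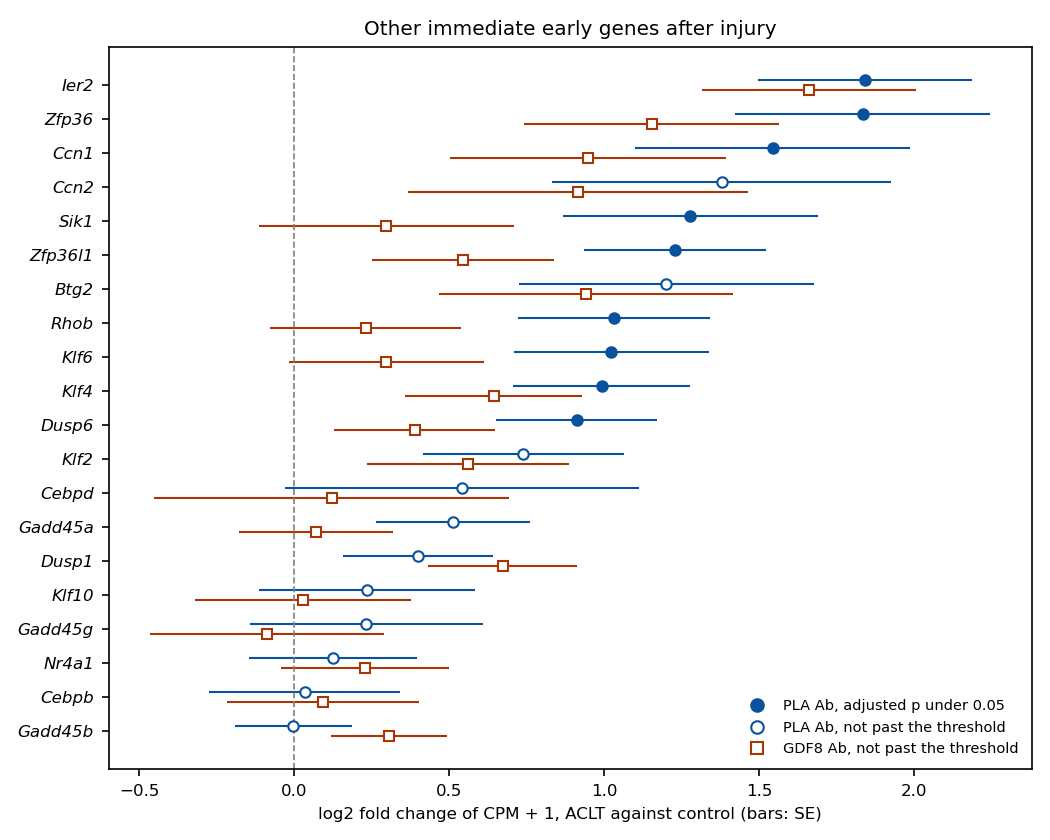
Difference between ACLT and control in log2(CPM + 1), with its SE, for the 20 tested other immediate early genes, with PLA Ab as circles (filled where the adjusted p was under 0.05) and GDF8 Ab as squares. The 9 filled circles lie between 0.91 and 1.84, and Ier2, which passed the filter through the ACLT libraries alone, is the highest gene under both antibodies.

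AP-1 target genes, known as such from other tissues and cell types, were mostly too low to test, and 5 of 15 passed the filter. Of these, Spp1 and Cd44 reached 10 CPM in no control library and Mmp14 in 3 of 10, so they passed through the ACLT libraries and are given as levels. Spp1, the gene of osteopontin, stood at 11.2, 25.4, 33.6, 144.7 and 258.6 CPM in PLA Ab ACLT libraries 1 to 5 and at 2.71, 10.5, 6.53, 1.31 and 1.65 CPM in GDF8 Ab ACLT libraries 1 to 5, and at most at 1.41 CPM in a control library. Spp1 reached 10 CPM in 5 PLA Ab and 1 GDF8 Ab ACLT libraries, so it passed the filter only through the group where it was high. Nothing is therefore read from the gap between the antibodies, which was 11.2 against 10.5 CPM at its closest. Cd44, which encodes a hyaluronan receptor, ranged from 10.1 to 98.6 CPM in the PLA Ab ACLT limbs, from 3.68 to 18.6 CPM in the GDF8 Ab ACLT limbs and up to 5.13 CPM in the control limbs. The other 2 genes, Vim (2.27 ± 0.43, adjusted p = 0.00343) and Plau (1.19 ± 0.27, adjusted p = 0.00703), rose in the ACLT limb with PLA Ab, and 0 of these 2 were called with GDF8 Ab (limma, 0 at an unadjusted p under 0.05). Both were lower with GDF8 Ab than with PLA Ab in the ACLT limb, Vim by -1.70 ± 0.43 (adjusted p = 0.0409) and Plau by -0.96 ± 0.27 (adjusted p = 0.0455). With the limbs blocked by mouse Vim alone was called, and neither was called without PLA Ab ACLT libraries 4 and 5. Neither was called with the 2 ACLT groups fitted alone, where 0 of all genes were lower. Spp1, Cd44 and Vim are also expressed by macrophages or fibroblasts, whose marker sums were highest in PLA Ab ACLT libraries 4 and 5, as Spp1 and Cd44 were. The part of cell makeup in the target genes was not tested.

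The genes whose levels across all 20 libraries were most like those of the 8 were themselves mostly early response genes. By Pearson's r of log2(CPM + 1), Ier2 was the most alike for Fos (r = 0.96, Spearman's rho = 0.93), Fosb (r = 0.94), Junb (r = 0.96) and Egr1 (r = 0.94). Zfp36 was the most alike for Jun (r = 0.87), Btg2, an antiproliferative gene, for Atf3 (r = 0.88), and Ccn1, which encodes a matricellular protein, for Jund (r = 0.88). For Fosl2 it was the splicing factor gene Sf3b3 (r = 0.92). Genes outside the list of early genes were not particular to Fosl2. Nbl1 (r = 0.88) and Htra3 (r = 0.87) came close behind Ccn1 for Jund. S100a13 was among the 3 most alike for both Fosl2 (r = 0.91) and Junb (r = 0.89). After the group means were removed, r was 0.85 for Ier2 with Fos, 0.91 for Ier2 with Junb and 0.85 for Sf3b3 with Fosl2. These values describe 20 libraries that share 4 groups and carry no test.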

How the data were processed

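Per the labels, total RNA of 20 mouse quadriceps was isolated with TRI Reagent and a column kit and sequenced. The authors' processing notes name STAR 2.7.3a, Partek and DESeq2, and the builds mm10 and mm39, with no role for either. The deposited table holds normalized counts per 1000000 (CPM) for 17415 genes, each library summing to 1000000. Only 20.2% to 34.9% of the values above 0 in a library came within 0.02 of a whole read, so no count model was used. Depth (15.6 M to 24.2 M reads) was estimated from the steps of the lowest values.

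Values were tested as log2(CPM + 1) with limma 3.58.1 (R 4.3.3), a fit over all 4 groups with a trended prior, on the 7937 genes that reached 10 CPM in 5 or more libraries, with Benjamini-Hochberg adjustment and a threshold of 0.05. Fold changes are therefore on the log2(CPM + 1) scale. The fit was tested on simulated data. Alternatives were other pseudocounts, filters and scalings (median of ratios, trimmed mean of M values), the limbs blocked by mouse, a Y-linked covariate and left-out libraries. The 8 genes and all gene lists were chosen with earlier results of these data known. For each list, up to 4 called genes of lowest p were named per comparison, and the 3 genes most like each of the 8 were computed. Others were named after their values were seen. A result for the further AP-1 subunits is not reported here.

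Same-numbered libraries under an antibody were taken as a mouse's limbs, from the study's use of the other limb as control. Labels do not state this. Deviations from group means correlated above 0.1 in 9 of 10 pairs (0.0387 to 0.625) and Y-linked expression matched in 10 of 10. P-values rest on the spread between libraries within groups of 5, shared by all 4 groups, and not on the compared groups alone. With only the compared groups fitted, 16 genes were higher and 0 lower after injury with PLA Ab. Between the antibodies in the ACLT limb, 0 were then higher and 0 lower.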

Additional observations from a re-analysis of the deposited data

Results flagged for a closer look

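In 4 of 32 sets of 5 libraries (8 genes in 4 groups), a library stood apart from the rest by more than Dixon's 95% limit of 0.71. Chance alone gives about 1 in 20 for independent sets of normally spread values. The limit was applied to CPM and not to the log2 values that were tested. As the 8 genes share their libraries, the 32 sets are not independent and that rate does not hold for them. Fos in GDF8 Ab control library 5 was 9.62 CPM, against 1.75 to 3.74 CPM in the other libraries of the group. Fosb in the same library was 2.98 CPM, against 0.321 to 0.608 CPM. Fosl2 in PLA Ab control library 1 was 17.5 CPM, against 12.2 to 13.3 CPM, and Junb in that library was 18.1 CPM, against 7.44 to 10.04 CPM. All 4 were high values in control limbs, and the cause was not tested.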

How the results depend on the processing

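For the 7 tested genes, 0 were called between the antibodies averaged over limbs or in the control limb under every alternative. In the ACLT limb the count rose from 0 to 1 (Fosl2) with the Y-linked covariate, where 157 of all genes were higher and 2125 lower. It lay between 0 and 1 over the single left-out libraries. The count of other immediate early genes higher with PLA Ab was 9 and became 17 with the 1 CPM filter and with no filter. It was 0 with the 2 groups fitted alone and 1 without PLA Ab ACLT libraries 4 and 5. Over the single left-out libraries it lay between 3 (where 9.13% of all genes were higher) and 13 (28.0%). With GDF8 Ab it was 0 as reported and 1 with the replicate block (0 to 0 over left-out libraries), that gene being Ier2, which passed the filter through the ACLT libraries alone. The replicate block, with a correlation within mice of 0.253, changed the genes called from 1603 to 2534 for injury with PLA Ab, from 2 to 5 with GDF8 Ab, from 532 to 237 between the antibodies in the ACLT limb and from 158 to 6 averaged over limbs.

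Directions turned only for differences between the antibodies that were not called. With median-of-ratios and trimmed mean of M values factors, Fosb averaged over limbs was 0.017 and 0.023 (as reported -0.10), Egr1 averaged 0.065 and 0.070 (as reported -0.07), Jun in the ACLT limb 0.18 and 0.19 (as reported -0.06) and Jund there 0.016 and 0.031 (as reported -0.22). Without PLA Ab ACLT libraries 4 and 5, Egr1 averaged was 0.028, Jun in the ACLT limb 0.042 and Jund there 0.063. Without GDF8 Ab ACLT libraries 1 and 2, an alternative chosen after seeing the data, Jun averaged was -0.11 (as reported 0.08). Over single left-out libraries the range spanned 0 for Egr1 averaged (-0.28 to 0.11), Egr1 in the control limb (-0.16 to 0.63), Fos in the control limb (-0.50 to 0.0036), Fosb averaged (-0.37 to 0.084), in the ACLT limb (-0.82 to 0.081) and in the control limb (-0.20 to 0.19), and Jun averaged (-0.036 to 0.16) and in the ACLT limb (-0.29 to 0.096).

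The injury differences of the 8 genes kept their direction in every recomputed value, of which 460 moved by less than the spread between replicates and 4 by more. These 4 were Fosb with PLA Ab at pseudocounts of 0.1 (4.89) and 5 (2.27) and Jun with PLA Ab after the rescalings (0.47 and 0.45). Rescaling by median-of-ratios factors moved the median injury difference of all genes with PLA Ab from 0.12 to -0.14, and its calls from 1471 higher and 132 lower to 931 and 2079, and averaged over limbs those between the antibodies from 24 and 134 to 68 and 31. The averaged comparison uses all 4 groups, so it has no fit of fewer. With 15.6 M reads or more, control levels of Fosb rested on as few as 7 reads.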
